A study of Mus musculus with 6 samples.

Results

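Adrenergic and muscarinic receptors are the G protein-coupled receptors through which noradrenaline and acetylcholine act on cortical cells. The 10 genes described here were taken by gene symbol from the 23284 genes of the deposited count table. They are the adrenergic receptor genes Adra1a, Adra1b, Adra1d, Adra2a, Adra2c and Adrb1 and the muscarinic receptor genes Chrm1, Chrm2, Chrm3 and Chrm4. All 10 passed the filter on low counts, which left 15258 genes for testing. The tissue was prefrontal cortex of wild-type mice of the inbred strain C57BL/6, aged 8 to 10 weeks, after 6 days of housing. There were 3 libraries from mice kept alone (single-housed) and 3 from mice kept in company (group-housed). How many animals shared a cage, and whether a library is a mouse of its own, is not stated in the labels. The p-values therefore measure no more than the spread among these 6 samples, part of which may be technical.

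Noradrenaline reaches the cortex in axons of the locus coeruleus, a brainstem nucleus, and acetylcholine mainly in axons of the basal forebrain. Both act as slow modulators of arousal, attention and working memory in the prefrontal cortex. The alpha-1 receptors and the muscarinic receptors M1 and M3 couple to Gq and raise intracellular calcium through phospholipase C. The alpha-2 receptors and the muscarinic receptors M2 and M4 couple to Gi and lower cyclic AMP, while the beta-1 receptor couples to Gs and raises it.

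None of the 10 receptor genes differed between single-housed and group-housed mice past the threshold, an adjusted p of 0.05 in edgeR's quasi-likelihood test with Benjamini-Hochberg adjustment over all 15258 genes. The adjusted p was 0.9999 for each, and 0 of 10 had an unadjusted p under 0.05. DESeq2 and limma-voom also called 0 of 10, and 0 of 10 had an unadjusted p under 0.05 in either. Over all genes tested, 0 (0%) passed the threshold in edgeR and 0 in limma-voom. Of these genes, 1.56% had an unadjusted p under 0.05 in edgeR, and 4.86% had groups that did not overlap. DESeq2, fitted to 19098 genes without the filter on low counts, called 8. The groups overlapped for each of the 10 receptors. By sign alone 4 were higher and 6 lower in single-housed mice, with a median log2 difference of -0.02, against a median of 0.0015 over all genes tested. Each difference is a log2 value, single-housed minus group-housed. Levels of 1 gene across libraries are given in CPM, counts scaled to a common library total with the TMM method, and levels of different genes are compared only in TPM, which also divides by the exon length.

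**Figure D1:**
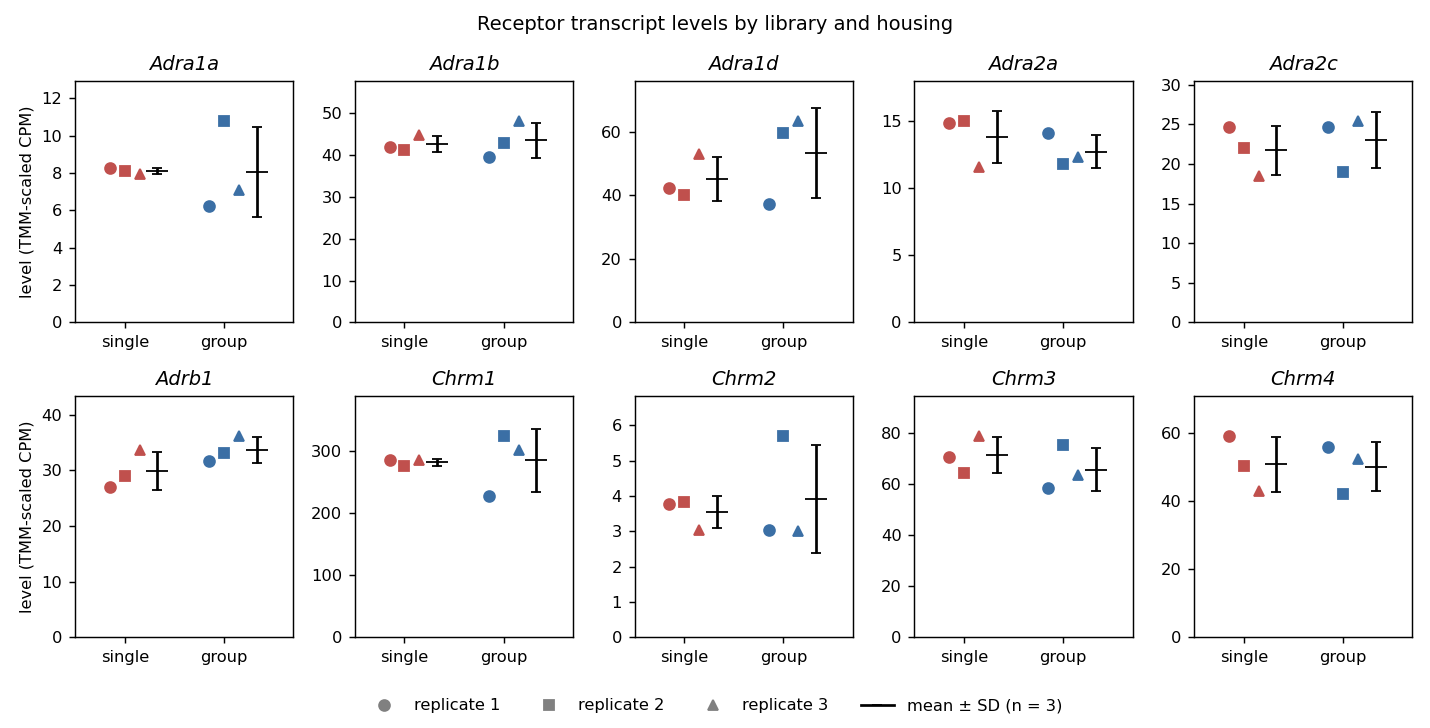
Level of each receptor gene in each library (y axis, CPM after TMM scaling, from 0), single-housed on the left in red and group-housed on the right in blue. Symbols mark the replicate and black bars the mean ± SD (n = 3). For each gene the ranges of the groups overlap, and the spread of Adra1a and Chrm1 is narrow in single-housed and wide in group-housed libraries.

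Library totals lay between 32902303 and 33428512 counts for single-housed mice, against 25858355 to 32088512 for group-housed mice. All 12 cortical excitatory neuron markers were measured, at a list mean of 6.86 to 6.89 log2 CPM in single-housed and 6.79 to 6.91 in group-housed libraries. Some genes of the list were less even than its mean. Bcl11b was at 128, 97.2 and 61.9 CPM (single-housed replicates 1 to 3) against 83.4, 61.3 and 67.1 CPM (group-housed replicates 1 to 3). Neurod6 was at 88.0, 102 and 114 CPM (single-housed replicates 1 to 3) against 100, 116 and 122 CPM (group-housed replicates 1 to 3). The libraries were not alike in markers of the striatum, which lies beneath the frontal cortex. Of 20 striatal markers listed, 19 had a row and 18 passed the filter, and none with a row was at 0 in all libraries. Their summed level was 1941, 931 and 305 CPM (single-housed replicates 1 to 3) against 893, 337 and 380 CPM (group-housed replicates 1 to 3). Single-housed replicates 1 and 2 and group-housed replicate 1 therefore stood apart from the other 3 libraries. Oligodendrocyte markers (9 of 9 measured, none at 0 in all libraries) were also uneven, at 2033 to 4293 CPM across single-housed and 2006 to 5500 CPM across group-housed libraries, with the highest sum in group-housed replicate 1. In RNA from whole tissue, fewer cells of a type and less RNA per cell cannot be told apart.

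The levels per length differed widely between the receptors, and much of their order held in every library. Chrm1, which encodes the M1 receptor of cortical pyramidal neurons, was highest at 132 ± 15.8 TPM (SD over 6 libraries), above every other member in all 6 libraries. Chrm3, which encodes M3, followed at 63.1 ± 7.84 TPM, then the alpha-1D receptor gene Adra1d at 59.9 ± 13.2 TPM and Chrm4, which encodes M4, at 53.2 ± 6.88 TPM. These 3 were not separated by their spread: Chrm3 exceeded Adra1d in 4 of 6 libraries, and Adra1d exceeded Chrm4 in 3 of 6. Adra1b at 41.3 ± 2.51 TPM lay below Chrm4 in all 6 libraries. The beta-1 receptor gene Adrb1 was at 37.2 ± 3.61 TPM, below Adra1b in each of the 6 libraries although their ranges overlap. Adra2c at 20.4 ± 2.51 TPM and Adra2a at 10.2 ± 1.21 TPM did not overlap with each other or with their neighbours in the order. Adra1a at 5.71 ± 1.17 TPM and Chrm2 at 5.37 ± 1.58 TPM were lowest, with overlapping ranges, and Adra1a was the higher in 5 of 6 libraries. The coefficient of variation over 6 libraries had a median of 12.4% for the 10 members and 9.53% for all genes tested.

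**Figure D2:**
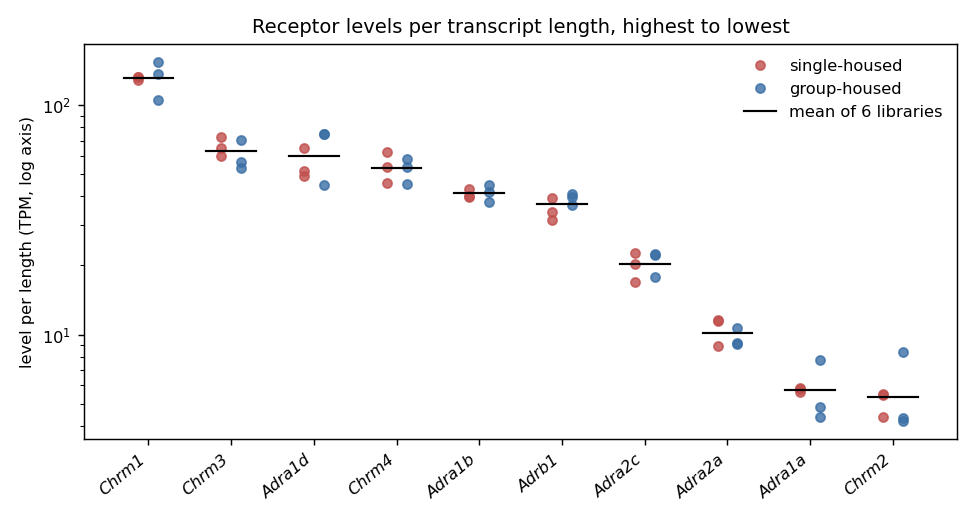
Level per length of each receptor gene (y axis, TPM, log axis) in 3 single-housed (red) and 3 group-housed (blue) libraries, ordered by the mean of 6 libraries (black line). Chrm1 at 132 TPM stands above the others, and Adra1a and Chrm2 at 5.71 and 5.37 TPM are lowest.

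Summed per length, the Gq-coupled receptors (Adra1a, Adra1b, Adra1d, Chrm1 and Chrm3) held 70.6% ± 2.52 of the TPM of the 10 members (single-housed) against 70.0% ± 4.78 (group-housed; SD, n = 3 each). The Gi-coupled receptors (Adra2a, Adra2c, Chrm2 and Chrm4) held 21.2% ± 3.30 (single-housed) against 20.8% ± 4.16 (group-housed). Adrb1, the only Gs-coupled member, held 8.28% ± 0.861 (single-housed) against 9.12% ± 0.645 (group-housed). Each of these differences was smaller than the spread within a group, apart from that of Adrb1, which was about the size of the spread. Within the muscarinic family Chrm1 held 51.3% ± 1.21 (single-housed) against 52.4% ± 4.24 (group-housed), and Chrm2 only 1.99% ± 0.267 (single-housed) against 2.21% ± 0.699 (group-housed). Within the adrenergic family Adra1d held the largest share, at 32.8% ± 3.01 (single-housed) against 35.2% ± 5.72 (group-housed). The alpha-2 receptors, the targets of the drugs clonidine and guanfacine, were a minor part, Adra2c at 11.97% ± 2.24 and Adra2a at 6.38% ± 1.22 in single-housed libraries, against 11.7% ± 2.48 and 5.43% ± 1.21 in group-housed libraries.

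Among the alpha-1 receptors, Adra1d showed the largest difference of the 10 members. Adra1d (chromosome 2, 131371093 to 131388021, minus strand, mm9, 2 exon blocks) was at 42.2, 40.05 and 52.9 CPM (single-housed replicates 1 to 3) against 37.1, 59.7 and 63.2 CPM (group-housed replicates 1 to 3). Its lowest and its highest library were thus both group-housed. The log2 difference was -0.25 (SE 0.192, 95% interval -0.68 to 0.19), and leaving out 1 library moved it between -0.45 (group-housed replicate 1 left out) and -0.10 (group-housed replicate 3 left out). The 3 libraries with high striatal markers had the 3 lowest levels, 37.1 to 42.2 CPM, against 52.9 to 63.2 CPM in the other 3. With the mean of the striatal list as a covariate the difference was -0.06. It was -0.22 within the 3 libraries with low striatal markers and 0.15 within the 3 with high striatal markers.

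Adra1b, which encodes the alpha-1B receptor (chromosome 11, 43588108 to 43649834, minus strand, mm9, 2 exon blocks), was the steadiest member, with a coefficient of variation of 6.09%. It was at 41.9, 41.3 and 44.9 CPM (single-housed replicates 1 to 3) against 39.7, 42.9 and 48.1 CPM (group-housed replicates 1 to 3). The log2 difference was -0.03 (SE 0.0885), and its 95% interval of -0.23 to 0.17 was the narrowest of the 10. The sign turned when single-housed replicate 2 (0.0016) or group-housed replicate 3 (0.05) was left out.

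Adra1a, which encodes the alpha-1A receptor (chromosome 14, 67254095 to 67352166, plus strand, mm9, 4 exon blocks), was even in single-housed libraries, at 8.27, 8.13 and 7.95 CPM in replicates 1, 2 and 3. In group-housed replicates 1, 2 and 3 it was at 6.24, 10.8 and 7.08 CPM, on both sides of the single-housed values. Its difference between housing groups was 0.01 (SE 0.189, 95% interval -0.42 to 0.44). It was 0.28 without group-housed replicate 2, -0.14 without group-housed replicate 1, -0.07 without group-housed replicate 3 and -0.0025 without single-housed replicate 1. On the log2 scale the SD of Adra1a was 0.029 (single-housed) against 0.409 (group-housed), and that of Chrm1 was 0.0288 (single-housed) against 0.268 (group-housed). The SD was larger in group-housed libraries for 7 of 10 members (70%), a share near the 67.6% of all genes tested.

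The alpha-2 receptors are found both on noradrenergic axons, where they limit release, and on cortical neurons. Adra2a (alpha-2A; chromosome 19, 54119672 to 54123472, plus strand, mm9) and Adra2c (alpha-2C; chromosome 5, 35621215 to 35624412, plus strand, mm9) each have 1 exon block. Adra2a was at 14.8, 14.9 and 11.5 CPM (single-housed replicates 1 to 3) against 14.1, 11.7 and 12.3 CPM (group-housed replicates 1 to 3). Its 3 highest levels were in the 3 libraries with high striatal markers, 14.1 to 14.9 CPM, against 11.5 to 12.3 CPM in the other 3. The housing difference of Adra2a was 0.12 (SE 0.128, 95% interval -0.17 to 0.41) and 0.006 with the striatal covariate. It was -0.06 within the 3 libraries with low striatal markers and 0.08 within the 3 with high striatal markers. Adra2c was at 24.7, 22.0 and 18.5 CPM (single-housed replicates 1 to 3) against 24.7, 19.0 and 25.4 CPM (group-housed replicates 1 to 3). The ranges of both groups overlap almost wholly, with a difference of -0.08 (SE 0.143, 95% interval -0.41 to 0.24), -0.20 with the striatal covariate and 0.02 without single-housed replicate 3. Adra2c exceeded Adra2a per length in every library, 1.75 to 1.98 times in single-housed and 1.92 to 2.46 times in group-housed libraries.

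The promoters of 4 members are shown because their genes make up the closest and the most opposed patterns across libraries among the 7 members that have a RefSeq promoter entry. Across the 6 libraries the log2 CPM of Adra2c and Chrm4 had a Pearson r of 0.93, and that of Adra2a and Adrb1 one of -0.83, both given as descriptions of libraries that also differ in striatal markers and depth. The sequences are the 250 bases before the start of transcription in RefSeq, build GRCm38.p6, plus strand, 5′ to 3′. Of the 8 promoter entries of members, 4 had their first 20 bases past the start in a GENCODE M21 transcript of the gene. The start may thus differ between annotations. Capitals mark matches on either strand to the TATA box letters TATAAA, to the box CCAAT and to the GC box letters GGGCGG, of which Chrm4 holds a pair that overlap. Adra2c lies downstream of chr5:35278316-35278565, Adra2a of chr19:54045009-54045258, Adrb1 of chr19:56721867-56722116 and Chrm4 of chr2:91921939-91922188.
Adra2c: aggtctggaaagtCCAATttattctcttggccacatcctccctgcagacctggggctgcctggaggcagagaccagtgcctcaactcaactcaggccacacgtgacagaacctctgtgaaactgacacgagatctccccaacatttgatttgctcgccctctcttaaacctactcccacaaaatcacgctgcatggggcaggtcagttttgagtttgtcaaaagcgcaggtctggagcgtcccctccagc
Chrm4: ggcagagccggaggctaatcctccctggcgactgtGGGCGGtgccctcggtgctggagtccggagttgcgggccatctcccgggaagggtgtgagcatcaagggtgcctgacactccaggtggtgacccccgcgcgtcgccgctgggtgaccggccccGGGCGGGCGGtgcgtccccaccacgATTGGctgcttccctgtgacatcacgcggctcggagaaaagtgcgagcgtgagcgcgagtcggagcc
Adra2a: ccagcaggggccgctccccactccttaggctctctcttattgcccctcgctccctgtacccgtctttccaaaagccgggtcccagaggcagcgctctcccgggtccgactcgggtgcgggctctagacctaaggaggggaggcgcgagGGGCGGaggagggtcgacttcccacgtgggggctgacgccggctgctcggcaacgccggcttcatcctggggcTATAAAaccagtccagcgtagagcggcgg
Adrb1: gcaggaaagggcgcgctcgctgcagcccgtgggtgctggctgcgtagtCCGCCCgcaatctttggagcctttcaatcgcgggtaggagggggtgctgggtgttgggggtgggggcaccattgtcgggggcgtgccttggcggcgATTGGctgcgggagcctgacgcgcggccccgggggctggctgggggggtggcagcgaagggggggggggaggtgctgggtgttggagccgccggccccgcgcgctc

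The promoters of Adra2c and Chrm4, whose levels ran together, were unlike in composition. That of Adra2c had 53.6% G and C and 6 CpG sites, against medians of 52.4% and 6 over 32851 promoters of the same length, while that of Chrm4 had 70.0% and 26. The promoters of Adra2a (67.6%, 22 CpG sites) and Adrb1 (74.0%, 24), whose levels ran in opposite directions, were both rich in CpG. TATAAA was found in Adra2a alone of the 4, and in 12.4% of all promoters. CCAAT was found in Adra2c, Chrm4 and Adrb1, and in 33.9% of all promoters. GGGCGG was found 3 times in Chrm4 and 1 time each in Adra2a and Adrb1, and in 32.7% of all promoters. The palindrome TGACGTCA was found in none of the 4 windows and in 1.55% of all promoters.

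Adrb1, which encodes the beta-1 receptor (chromosome 19, 56796862 to 56799352, plus strand, mm9, 1 exon block), had the smallest unadjusted p of the 10 members. It was at 27.0, 29.1 and 33.6 CPM (single-housed replicates 1 to 3) against 31.7, 33.1 and 36.2 CPM (group-housed replicates 1 to 3). The 2 lowest libraries were single-housed and the highest was group-housed, but single-housed replicate 3 lay above group-housed replicates 1 and 2. The log2 difference was -0.17 (SE 0.102, 95% interval -0.41 to 0.06; unadjusted p = 0.127, edgeR adjusted p = 0.9999), from means of 29.9 ± 3.39 CPM (single-housed) against 33.7 ± 2.27 CPM (group-housed) (SD, n = 3 each). It stayed below 0 in all 15 alternative fits, between -0.27 and -0.04, and was -0.10 with the striatal covariate. The largest, -0.27, was without single-housed replicate 3, where the unadjusted p was 0.0355 and the adjusted p from edgeR 1. Adra1a, Adra1d, Chrm1 and Chrm3 also had an unadjusted p under 0.05 in at least 1 alternative fit, and none of them an adjusted p under 0.05. The smallest difference, -0.04, was that within the 3 libraries with low striatal markers, of which 1 was single-housed. Within the 3 libraries with high striatal markers, of which 1 was group-housed, the difference was -0.18.

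Chrm1 (chromosome 19, 8738495 to 8758092, plus strand, mm9, 3 exon blocks), which encodes the M1 receptor, carried more counts than any other member, 6086 to 9918 per library. It was at 285, 276 and 285 CPM (single-housed replicates 1 to 3) against 229, 325 and 303 CPM (group-housed replicates 1 to 3). The single-housed libraries agreed within a few percent and fell inside the group-housed range. The housing difference of Chrm1 was -0.02 (SE 0.121, 95% interval -0.29 to 0.26). It was 0.09 without group-housed replicate 2, 0.03 without group-housed replicate 3, 0.0068 without single-housed replicate 2 and 0.06 with the striatal covariate.

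Chrm3 (chromosome 13, 9875859 to 10360049, minus strand, mm9, 5 exon blocks), which encodes the M3 receptor, also Gq-coupled, was at 70.5, 64.4 and 78.6 CPM (single-housed replicates 1 to 3) against 58.2, 75.0 and 63.5 CPM (group-housed replicates 1 to 3). The highest library was single-housed and the lowest group-housed, with overlap between them. Its housing difference was 0.12 (SE 0.110, 95% interval -0.13 to 0.37), and it was above 0 in all 15 alternative fits, between 0.04 and 0.23. Chrm1 exceeded Chrm3 per length 1.83 to 2.16 times in single-housed and 1.98 to 2.40 times in group-housed libraries.

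Chrm4 encodes the M4 receptor, which in rodents is abundant in striatal projection neurons as well as present in cortex (chromosome 2, 91762346 to 91769986, plus strand, mm9, 2 exon blocks). It was at 59.2, 50.4 and 43.1 CPM (single-housed replicates 1 to 3) against 56.0, 42.1 and 52.4 CPM (group-housed replicates 1 to 3). The highest level was in single-housed replicate 1, the library with the most striatal marker RNA, and the 2 lowest were in the 2 libraries with the least. Between the housing groups it differed by 0.02 (SE 0.138, 95% interval -0.29 to 0.33). The difference was -0.11 with the striatal covariate, -0.10 and -0.09 when single-housed replicate 1 or, in turn, group-housed replicate 2 was left out. The highest library was 1.38 times the lowest for Chrm4 per length. Striatal markers themselves differed in spread. Drd2, the dopamine D2 receptor gene of striatal projection neurons, was at 47.0, 17.2 and 0.869 CPM (single-housed replicates 1 to 3) against 16.2, 1.01 and 2.57 CPM (group-housed replicates 1 to 3). Drd1a was at 60.4, 35.7 and 11.3 CPM (single-housed replicates 1 to 3) against 34.6, 10.6 and 11.6 CPM (group-housed replicates 1 to 3). Pdyn, also on the striatal list, was at 13.1, 9.89 and 10.2 CPM (single-housed replicates 1 to 3) against 7.63, 9.62 and 9.49 CPM (group-housed replicates 1 to 3). The part of striatal tissue in the Chrm4 level was not tested.

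Chrm2, which encodes the M2 receptor, known as a release-limiting autoreceptor on cholinergic axons (chromosome 6, 36338084 to 36474774, plus strand, mm9, 3 exon blocks), had 81 to 174 counts per library. It was at 3.79, 3.83 and 3.03 CPM (single-housed replicates 1 to 3) against 3.04, 5.69 and 3.02 CPM (group-housed replicates 1 to 3). Group-housed replicate 2 was the highest for Chrm2, as it was for Adra1a and Chrm1, and the other 5 libraries lay between 3.02 and 3.83 CPM. The log2 difference was -0.15 (SE 0.255), 0.23 without group-housed replicate 2, and its 95% interval of -0.73 to 0.43 was the widest of the 10. Chrm2 was thus the member with the least precise difference. Over 79 bases its exons overlap those of 9330158H04Rik on the other strand, a gene with 10 to 17 counts per library, and those of Chrm4 overlap Mdk over 8 bases on the other strand. Whether the counting used strand is not given in the sources used here.

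**Figure D3:**
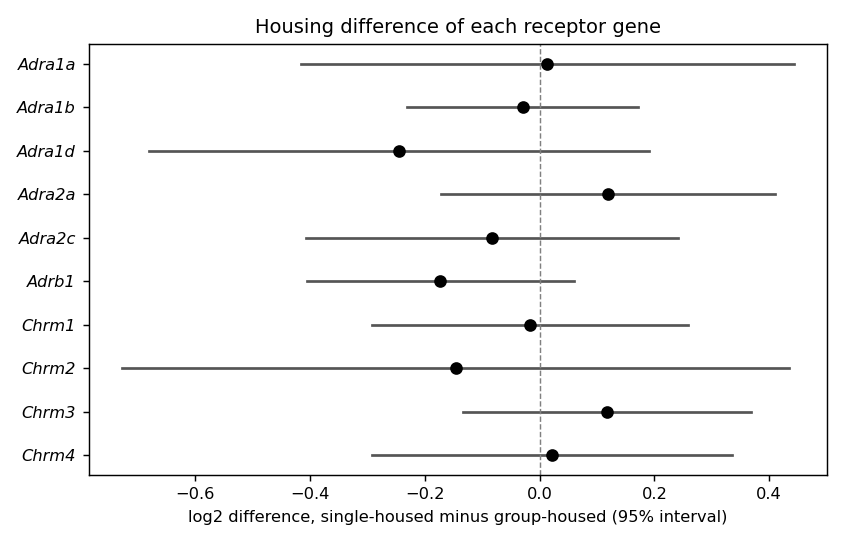
Log2 difference of each receptor gene (x axis, single-housed minus group-housed) from edgeR's quasi-likelihood fit, with its 95% interval as a line. All 10 intervals include 0, that of Adra1b being the narrowest (-0.23 to 0.17) and that of Chrm2 the widest (-0.73 to 0.43).

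Set beside the striatal markers, the receptors did not form 1 pattern. Adra1b, Adra1d, Adrb1 and Chrm1 were lower, and Adra2a was higher, in each of the 3 libraries with high striatal markers than in each of the other 3. That is 5 of 10 members, where 20.7% of all genes tested did not overlap between the same sets of libraries, and no test was made. The same 3 libraries were also the 3 highest in oligodendrocyte markers, at 4089 to 5500 CPM summed, against 2006 to 3167 CPM in the other 3, and the part of either tissue component was not tested. The other 5 members overlapped between these sets of libraries, which were defined from the data and hold both housing groups. For Chrm1 the sets were nearly in contact, at 285.3 and 285.4 CPM. Adra1b was at 39.7 to 41.9 against 42.9 to 48.1 CPM, and Adrb1 at 27.0 to 31.7 against 33.1 to 36.2 CPM.

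**Figure D4:**
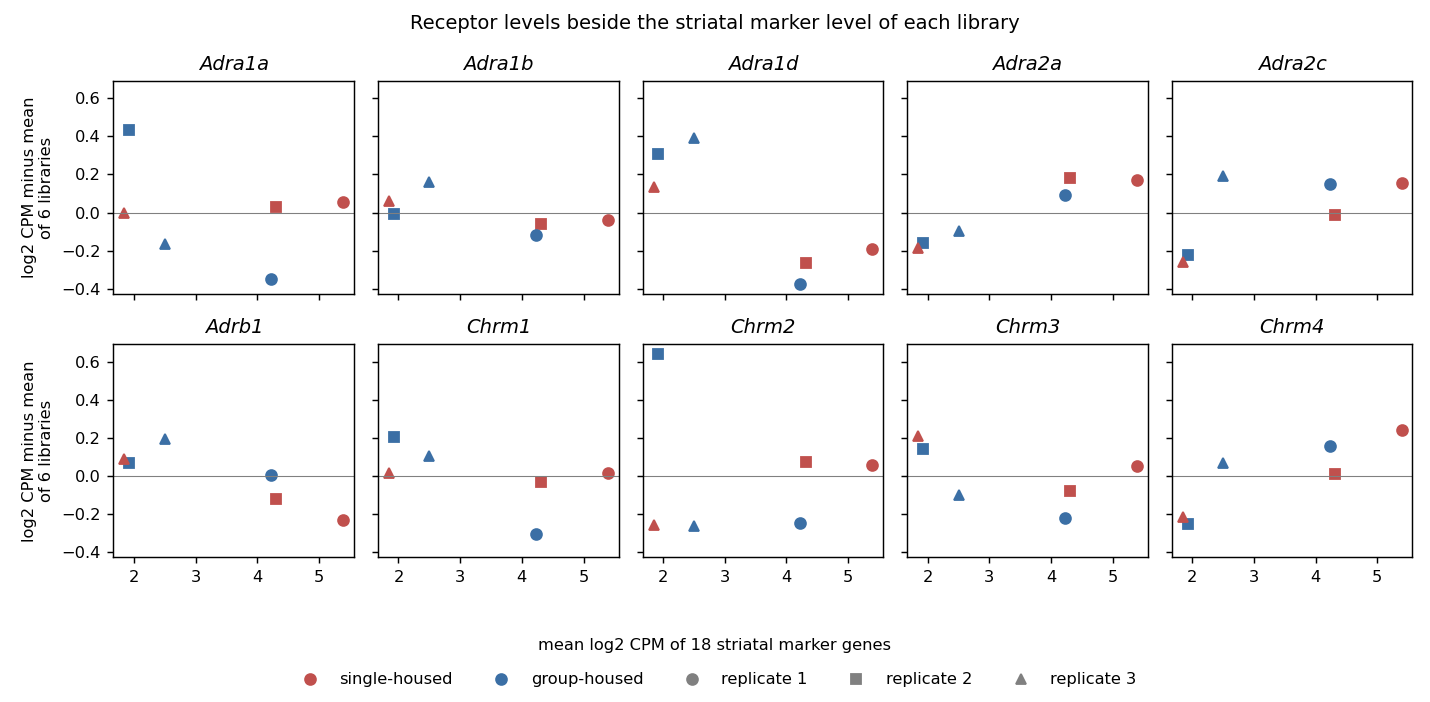
Log2 CPM of each receptor gene minus its mean over the 6 libraries (y axis), against the mean log2 CPM of 18 striatal marker genes in the same library (x axis); red is single-housed, blue group-housed, and symbols mark the replicate. The 3 libraries on the right (single-housed replicates 1 and 2, group-housed replicate 1) are the lowest for Adra1d and the highest for Adra2a.

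The genes whose log2 CPM followed each receptor most closely over the 6 libraries differed from member to member, and Pearson's r is given as a description of these libraries, out of 12715 genes with a mean of at least 1 CPM. For Chrm1 they were Madd (r = 0.997), Ulk1 (0.997) and Syne1 (0.994), and for Chrm3 Alg10b (0.986), Postn (0.986) and Ift88 (0.983). Chrm4 was followed by Stard10 (0.997), Dnaic2 (0.997) and Dda1 (0.996), and Chrm2 by Zbtb9 (0.985), Inpp5d (0.978) and Atp9b (0.975). Closest to Adra1a were Unc80 (0.995), Zfp551 (0.992) and Rere (0.992), closest to Adra1b Ppp2r2c (0.989), Prickle1 (0.982) and Nop16 (0.982), and closest to Adra1d Camkk1 (0.993), Cmpk2 (0.993) and Ankrd33b (0.992). Adra2a was nearest to Cacng5 (0.997), Nnat (0.988) and Sema6a (0.987), Adra2c to Rhob (0.993) and Yipf3 (0.990), and Adrb1 to Mrm1 (0.983), P2rx3 (0.983) and Pcbd1 (0.979). Among the members, Adra1a and Chrm2 had an r of 0.90 and Adra1d and Adra1b one of 0.87.

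Further receptors of both families were low, although the range of Adrb3 per length overlapped those of the lowest members, Adra1a and Chrm2. Adrb3, the beta-3 receptor gene best known from adipose tissue, was at 3.87 ± 0.609 CPM (single-housed) against 3.74 ± 1.001 CPM (group-housed), with a log2 difference of 0.05 (SE 0.212, n = 3 each), and per length at 2.88 to 5.11 TPM. Adra2b had 2 to 10 counts in single-housed and 4 to 8 counts in group-housed libraries, and Chrm5 had 7, 5 and 2 counts (single-housed replicates 1 to 3) against 0, 3 and 0 counts (group-housed replicates 1 to 3). Neither Adra2b nor Chrm5 passed the filter. A count of 0 allows up to 3 counts, which is 0.116 CPM of the total in group-housed replicate 1 and 0.0935 in replicate 3, for counting error only.

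Transcripts of noradrenergic neurons, whose cell bodies lie in the brainstem, were near the limit of detection. Slc6a2, the noradrenaline transporter gene, had 0 or 1 count in each library, and Dbh, which encodes the enzyme that makes noradrenaline from dopamine, was at 0.583 ± 0.0977 CPM (single-housed) against 0.480 ± 0.126 CPM (group-housed), a difference of 0.29 (SE 0.299). Of the 5 noradrenergic neuron markers 2 were at 0 in all libraries, and their summed level was 0.478 to 0.702 CPM across single-housed and 0.413 to 0.676 CPM across group-housed libraries. Th, which encodes the first enzyme of the pathway and is shared with dopamine neurons, was at 4.10 ± 1.03 CPM (single-housed) against 3.77 ± 1.48 CPM (group-housed). Of 9 genes of noradrenaline synthesis, transport and breakdown tested, 0 passed, 5 were higher and 4 lower, with a median of 0.02. Maoa, a monoamine-degrading enzyme gene, had a difference of 0.13 (SE 0.0926), and Pnmt, which encodes the enzyme that makes adrenaline, one of 1.15 (SE 0.669) from 1 to 16 counts per library.

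Genes of acetylcholine synthesis and transport had the largest median difference of the lists, with wide errors. Chat, the acetylcholine-synthesising enzyme gene, was at 5.71, 1.94 and 0.300 CPM (single-housed replicates 1 to 3) against 2.33, 0.327 and 0.508 CPM (group-housed replicates 1 to 3). The 3 libraries with high striatal markers were thus the 3 highest for Chat, and the log2 difference of 1.37 had an SE of 0.926. Slc18a3, the vesicular acetylcholine transporter gene, at 3.54, 1.55 and 0.540 CPM (single-housed replicates 1 to 3) against 1.35, 0.295 and 0.413 CPM (group-housed replicates 1 to 3), was highest in the same 3 libraries (1.49, SE 0.708). Slc5a7, the choline transporter gene, did so too, at 6.35, 2.87 and 0.959 CPM (single-housed replicates 1 to 3) against 3.27, 1.37 and 1.37 CPM (group-housed replicates 1 to 3) (0.77, SE 0.601). The 8 cholinergic neuron markers, which share these 3 genes, summed to 24.2, 10.5 and 2.73 CPM (single-housed replicates 1 to 3) against 10.5, 3.01 and 3.40 CPM (group-housed replicates 1 to 3). The part of striatal or other cholinergic cells in the difference was not tested. Ache, which encodes acetylcholinesterase, had another order of libraries, being at 73.8, 72.3 and 72.1 CPM (single-housed replicates 1 to 3) against 70.5, 62.7 and 65.6 CPM (group-housed replicates 1 to 3). Its groups did not overlap (0.14, SE 0.0696), as for 4.86% of all genes tested, and its adjusted p was 0.9999 in edgeR's test. Colq, which encodes a collagen tail of acetylcholinesterase, had a difference of -0.49 (SE 0.262). Of the 8 genes of this list, all tested, 0 passed, 7 were higher and 1 lower, with a median of 0.39.

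Over the pathway lists as a whole no gene passed the test. Of the 107 genes tested over the 8 pathway lists, 0 passed the threshold and 0 had an unadjusted p under 0.05 in edgeR's test. DESeq2 and limma-voom called 0 of them as well. By sign 61 were higher and 46 lower in single-housed mice, with a median log2 difference of 0.01 against 0.0015 over all genes. Their groups did not overlap for 5 of the 107, 3 higher and 2 lower, where the share over all genes was 4.86%. Of these, the gamma subunit gene Gng5 was named after its values were seen.

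Among 23 G protein subunit genes tested, 10 were higher and 13 lower (median -0.03). Gng4, a gamma subunit gene, was at 48.9 ± 1.36 CPM (single-housed) against 54.2 ± 2.68 CPM (group-housed) with no overlap (-0.15, SE 0.0702). Gnal and Gng7, an alpha and a gamma subunit gene abundant in striatum, had differences of 0.29 (SE 0.168) and 0.74 (SE 0.461), and exons of Gnal overlap those of Mppe1 on the other strand. Among 23 Gq effector genes 17 were higher and 6 lower (median 0.04), and those of small unadjusted p included Dgkb, a diacylglycerol kinase gene (0.31, SE 0.161), and Prkcd, a protein kinase C gene (0.30, SE 0.205). Among 17 Gi and Gs effector genes 8 were higher and 9 lower (median -0.0086), and the smallest unadjusted p were those of Prkar2b, a protein kinase A subunit gene (0.12, SE 0.0795), the pacemaker channel gene Hcn4 (0.35, SE 0.326) and the transcription factor gene Creb1 (0.09, SE 0.0942). Hcn4 was lowest in group-housed replicate 1, at 1.47 CPM, while the other 5 libraries lay between 3.59 and 4.70 CPM. Of 15 receptor kinase, arrestin and anchor genes 8 were higher and 7 lower (median 0.0007). Adrbk1, the older symbol of the receptor kinase gene Grk2, was at 360, 355 and 360.0 CPM (single-housed replicates 1 to 3) against 378, 389 and 390 CPM (group-housed replicates 1 to 3), with no overlap (-0.11, SE 0.0635). The anchor gene Akap5 (0.11, SE 0.126) and the arrestin gene Arrb2 (-0.07, SE 0.0823) were next by unadjusted p.

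Of the 10 nicotinic receptor subunit genes tested, 5 were higher and 5 lower (median -0.02). Nicotinic receptors are the ion channel receptors of acetylcholine. Chrna3 was low, at 0.694 ± 0.117 CPM (single-housed) against 0.493 ± 0.0676 CPM (group-housed), with no overlap (0.48, SE 0.263). Chrnb1 (-0.21, SE 0.255) and Chrna5 (-0.14, SE 0.189) were the next by unadjusted p.

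**Figure D5:**
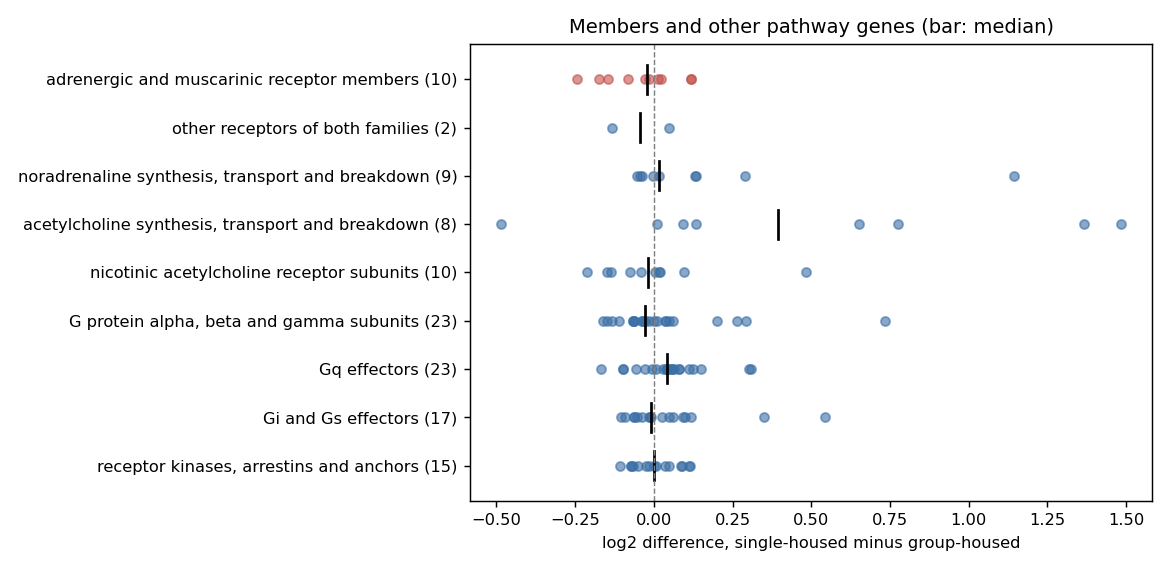
Log2 difference (x axis, single-housed minus group-housed) of the 10 receptor members (red) and of the tested genes of each pathway list (blue), with the number of genes in brackets and a black bar at the median. The members lie between -0.25 and 0.12, and the acetylcholine list, with a median of 0.39, spreads most.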

How the data were processed

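RNA was isolated from prefrontal cortex with a column kit and libraries were made with a stranded kit that selects polyadenylated RNA, per the labels' protocols. FastQC, STAR, featureCounts and mouse build mm9 are named in the submitters' processing notes; no version, annotation release or strand setting is stated there. The authors deposited whole-number read counts for each gene, not normalized, in featureCounts layout per the file headers. The summed exon length of each gene, another deposited column per the file headers, was used to compute TPM.

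Groups came from the sample titles. Genes passing filterByExpr (minimum count 10, minimum total count 15) were tested with edgeR 4.0.16 (quasi-likelihood F-test, TMM, Benjamini-Hochberg over 15258 genes, R 4.3.3); the script was tested on simulated data. SEs were derived from the F statistic, and log2 CPM used a prior count of 2. Alternatives were DESeq2 1.42.0, limma-voom 3.58.1, DESeq2 size factors, 2 other filters, each library left out, the replicate number as a block, the mean of 18 striatal markers as a covariate, and only the 3 libraries with low or, added after seeing the data, high striatal markers.

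Members and lists were chosen with earlier results of these data known. The naming rule took all members, the other family receptors, 7 ligand enzymes and transporters, the 3 genes of smallest p per pathway list, and the 3 genes most like each member by Pearson correlation, skipping predicted genes; some genes that it names are not reported here. It also allowed striatal markers such as Drd2 and Drd1a beside a member, and Pdyn was named after its values were seen. No pair of libraries agreed within sampling noise (chi-square per degree of freedom 10.2 to 40.6 within groups). The longest run of identical bases between transcripts of 2 members of the same family (GENCODE M21) was 29, between Chrm1 and Chrm4. Adrenergic and muscarinic transcripts were not compared with each other.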

Additional observations from a re-analysis of the deposited data

How the results depend on the processing

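The count of 0 receptor members past the threshold held in all 15 alternative fits. The order of levels had 4 overlapping pairs of neighbours, also without any 1 library, and 3 when CPM replaced TPM. Adrb1 stayed lower and Chrm3 higher in single-housed mice in all 15 fits. Each of the other 8 members changed sign in at least 1 fit; the cause was not tested. With the striatal covariate the differences were 0.014 for Adra1b, 0.061 for Chrm1 and -0.110 for Chrm4. In the 3 libraries with low striatal markers (1 single-housed, assumed to vary like the other group) they were -0.167 for Adra1a, -0.057 for Adra2a, -0.132 for Chrm4, -0.260 for Adra2c and -0.522 for Chrm2. In the 3 with high striatal markers (single-housed replicates 1 and 2 against group-housed replicate 1, which is assumed to vary like them) they were 0.392 for Adra1a, 0.066 for Adra1b, 0.146 for Adra1d, 0.292 for Chrm1, 0.320 for Chrm2 and -0.033 for Chrm4. Leaving out 1 library gave ranges of -0.136 to 0.284 for Adra1a, -0.091 to 0.049 for Adra1b, -0.204 to 0.019 for Adra2c, -0.152 to 0.086 for Chrm1, -0.307 to 0.227 for Chrm2 and -0.102 to 0.128 for Chrm4. In edgeR an unadjusted p under 0.05 was found for Adra1d (0.00556, edgeR adjusted p = 1) without group-housed replicate 1, for Adra1a (0.0417) and Chrm3 (0.0487, both adjusted 0.875) without group-housed replicate 2, for Adrb1 (0.0355, adjusted 1) without single-housed replicate 3, and for Chrm1 (0.00808, adjusted 0.157) and Adra1a (0.0377, adjusted 0.291) in the libraries with high striatal markers.

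Over all genes, 0 were called with all libraries, 0 to 1 without 1 library (1 without group-housed replicate 1 and 1 without group-housed replicate 2), 4 with low and 198 with high striatal markers only, and 8 by DESeq2. Of the pathway genes, 3 were called with high striatal markers only, namely Kcnq3, Hcn4 and Trpc5, named after their values were seen; these and the 198 rest on group-housed replicate 1 as the lone group-housed library. The replicate block called 0 members and 0 genes. The deviations of same-numbered libraries from their group means had correlations of 0.271, -0.318 and 0.170. With 3 libraries per group that also differ in striatal markers, these cannot decide whether the numbers pair the libraries.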
